A study of Mus musculus with 2 samples.

Results

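The proteasome genes were taken as all protein-coding genes of the GENCODE M21 annotation whose symbol starts with Psma, Psmb, Psmc, Psmd, Psme, Psmf or Psmg, which gave 50 of 21911 genes. They were examined in DNase-seq data from the mouse line MN1, an immortalized line of strain B6NCrl. The assay cuts nuclei with DNase I and sequences the cut ends, so that peaks mark open chromatin. The series holds 1 group of 2 biological replicates with 1 library each, and the labels name no tissue, treatment or genetic change, record sex as not collected and give the developmental stage and age as unknown. With 2 libraries and no second condition there is no comparison of conditions. The proteasome genes are therefore described within each library, beside the same measure over all protein-coding genes, and no test was made because genes are not replicates.

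Of the 50 genes, 41 encode constitutive subunits, activators, inhibitors or assembly chaperones of the proteasome. A further 6 form the immune and thymus class (Psmb8, Psmb9, Psmb10, Psmb11, Psme1 and Psme2). Psma8 encodes an alpha subunit of the testis. Psmc3ip carries the prefix through its name as a partner of Psmc3, and its product acts in meiotic recombination and is no proteasome subunit. Psme2b, named after Psme2, was placed in no class.

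The proteasome degrades proteins tagged with ubiquitin. Its core particle stacks rings of alpha subunits, which gate the entrance, on rings of beta subunits, of which Psmb5, Psmb6 and Psmb7 carry the catalytic sites. The regulatory particle on its end unfolds substrates with a ring of ATPases (Psmc genes) and holds non-ATPase subunits (Psmd genes) that bind or remove ubiquitin. Interferon gamma induces Psmb8, Psmb9 and Psmb10, which replace the catalytic subunits in the immunoproteasome, together with the activator subunits Psme1 and Psme2, and the peptides made are loaded on MHC class I molecules. In cortical epithelial cells of the thymus, Psmb11 takes the place of Psmb5 or Psmb8. When proteasome activity is short, the transcription factor Nfe2l1 is known to raise transcription of the constitutive genes together through antioxidant response elements in their promoters.

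The promoter of a gene reached 1 kb to either side of each of its annotated transcription start sites, and a peak, 150 bp wide in these lists, was assigned to a promoter by its centre. Peaks of the 2 libraries that had at least 1 bp in common are called shared. The sequences of the shared promoter peaks with the highest score in replicate 1 were read from the genome (GRCm38, equal to mm10), on the strand of the gene from 5′ to 3′. Printed below is the longest stretch of each peak outside every annotated exon. Psmb5 and Psmb6 are catalytic subunits of the constitutive core, and Psmb8 and Psmb10 are the induced counterparts of Psmb5 and Psmb7. These 4 are shown because the constitutive and immune classes are compared through them. The peak of Psmb9 lies wholly in annotated exons, and Psmb7 is named only. Capitals mark matches to 5 short words on either strand. TGANNNNGC, where N is any letter, is a loose form of the antioxidant response element core. It is called the loose antioxidant word below, and a match need not be such an element. TGACGT is the cyclic AMP response element (CRE), CCGGAAG a word of ETS factors and AAGATGG a word of YY1. CCAAT is bound by NF-Y.
Psmb5, chr14:54618023-54618145, minus strand: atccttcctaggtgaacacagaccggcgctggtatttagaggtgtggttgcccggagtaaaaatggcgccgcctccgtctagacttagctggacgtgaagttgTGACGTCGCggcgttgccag
Psmb6, chr11:70525216-70525365, plus strand: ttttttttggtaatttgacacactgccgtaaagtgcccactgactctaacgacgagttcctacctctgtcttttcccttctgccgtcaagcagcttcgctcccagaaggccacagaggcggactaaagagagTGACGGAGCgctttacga
Psmb8, chr17:34197636-34197720, plus strand: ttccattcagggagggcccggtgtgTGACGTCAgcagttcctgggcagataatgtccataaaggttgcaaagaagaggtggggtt
Psmb10, chr8:105937039-105937145, minus strand: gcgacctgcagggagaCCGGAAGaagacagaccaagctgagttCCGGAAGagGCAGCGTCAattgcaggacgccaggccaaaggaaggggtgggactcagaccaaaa

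In Psmb5 and Psmb6 a match to the loose antioxidant word lay just before the start site. It was TGACGTCGC in Psmb5, with its centre 16 bp upstream, and TGACGGAGC in Psmb6, with its centre 15 bp upstream. In Psmb5 this word overlaps a CRE match. Psmb8 held a CRE match that reads the same on both strands, with centres 55 and 57 bp upstream. It had no match to the loose antioxidant word in the 150 bp of its peak. In 300 bp round the peak, and in the RefSeq promoter window used below, Psmb8 did have that word. Psmb10 held 2 ETS words, 61 and 88 bp upstream of the nearest start site, which is internal to the gene, and the antioxidant word TGACGCTGC on the opposite strand, 51 bp upstream.

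Further peaks are shown for words that recur across the class. Psma6, Psmd9, Psmg4 and Psmc3ip held the loose antioxidant word in their printed stretch. Psmc6, Psmg1 and Psmc4 were chosen after their matches were seen, as examples of the ETS word (Psmc6 and Psmg1) and the YY1 word (Psmc4).
Psma6, chr12:55398696-55398774, plus strand: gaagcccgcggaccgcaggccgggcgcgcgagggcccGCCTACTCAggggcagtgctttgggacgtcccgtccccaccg
Psmd9, chr5:123228156-123228189, plus strand: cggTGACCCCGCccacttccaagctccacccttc
Psmg4, chr13:34162916-34162963, plus strand: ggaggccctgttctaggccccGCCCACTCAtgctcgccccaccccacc
Psmc3ip, chr11:101095437-101095545, minus strand: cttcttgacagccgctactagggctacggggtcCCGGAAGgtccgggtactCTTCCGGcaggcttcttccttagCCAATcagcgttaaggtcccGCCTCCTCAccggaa
Psmc6, chr14:45329636-45329785, plus strand: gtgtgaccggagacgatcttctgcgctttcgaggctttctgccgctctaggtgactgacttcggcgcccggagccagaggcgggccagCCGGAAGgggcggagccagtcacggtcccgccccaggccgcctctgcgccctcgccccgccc
Psmg1, chr16:95990961-95991085, minus strand: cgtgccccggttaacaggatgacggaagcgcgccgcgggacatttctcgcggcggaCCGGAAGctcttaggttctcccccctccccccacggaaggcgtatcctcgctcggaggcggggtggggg
Psmc4, chr7:28050102-28050245, minus strand: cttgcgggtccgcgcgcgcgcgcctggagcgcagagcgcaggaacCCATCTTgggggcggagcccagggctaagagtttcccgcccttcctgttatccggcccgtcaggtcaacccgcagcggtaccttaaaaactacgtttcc

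A promoter peak was present in both libraries for 47 of the 50 proteasome genes, 94.0% of them, where 58.9% of all protein-coding genes had one. All 41 constitutive genes had one, as did 5 of the 6 genes of the immune and thymus class. The 3 genes without a peak in both libraries were Psma8, Psmb11 and Psme2b. The culture was measured in bulk, so fewer cells with an open site and a less open site in each cell cannot be told apart.

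Peaks carry a score made by the authors, with a ceiling of 150 and no stated normalization. It was turned into a percentile within the peak list of its own library, and the 2 libraries were set side by side and not subtracted. The peak with the highest score in each promoter had a median score of 134 in replicate 1 and 132 in replicate 2 over the 41 constitutive genes, at median percentiles of 96.9 and 96.8. Over the 5 immune and thymus genes with a peak, the median scores were 124 and 123, at percentiles of 94.3 and 94.5. Over all protein-coding genes with such peaks in both libraries these were median scores of 129 and 128, at percentiles of 95.6 and 95.7. The range of the immune class, 93.4 to 99.6 in replicate 1 and 93.0 to 98.5 in replicate 2, lay inside the constitutive range of 85.1 to 99.7 and 84.8 to 99.9. For Psmb10 the value is of a peak inside the gene, and at its outermost start site the percentiles were 84.2 and 69.1, below that range. The values of Psmb9 and Psme2 come from promoters shared with Tap1 and Rnf31. Some constitutive values also come from internal start sites or shared promoters. No difference between the 2 classes was tested.

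**Figure D1:**
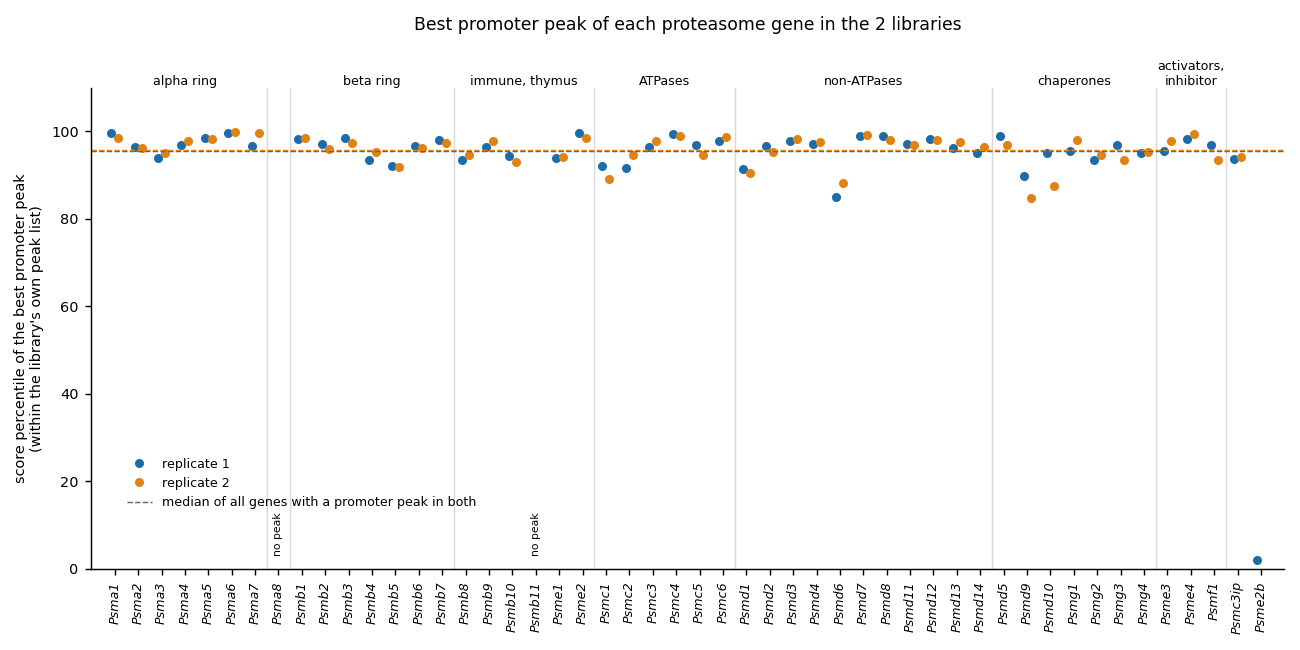
Each point is the promoter peak with the highest score of 1 proteasome gene in 1 library, placed by its score percentile in that library's peak list (y axis, 0 to 100), with genes on the x axis grouped by role and dashed lines at the medians of all protein-coding genes with a promoter peak in both libraries (95.6 and 95.7). All constitutive genes lie at or above the percentile of 84.8, Psma8 and Psmb11 have no peak, and Psme2b has 1 peak at 2.04 in replicate 1 only.

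Most proteasome promoters stood high in each list. In replicate 1, 45 of the 47 genes (95.7%) had their highest promoter peak at or above the 90th percentile, against 74.1% of all genes with peaks in both. In replicate 2, 43 of the 47 (91.5%) did so, against 75.1%. At the 99th percentile and above the order of the shares was the other way round, with 4 of 47 (8.51%) against 14.4% in replicate 1 and 5 of 47 (10.6%) against 15.9% in replicate 2. In replicate 1 the peaks of Psmd5, Psmd7 and Psmd8 lay just under that line, at a percentile that rounds to 99.0, so these shares turn on a few genes.

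The 5 genes with the highest mean percentile came from 4 roles. Psma6, an alpha subunit, had scores of 146 and 147 in replicates 1 and 2. Psmc4, an ATPase, had 144 and 141. Psma1, an alpha subunit, had 146 and 139. Psmd7, a non-ATPase subunit, had 142 in both libraries. Psme2, a subunit of the interferon-induced activator, had 145 and 139, but these are 2 different peaks. The value of replicate 1 is of the peak over the start site, which scored 137 in replicate 2. The 139 is of a peak toward the neighbouring gene Rnf31, so the place of Psme2 among the 5 rests in part on a peak that cannot be given to it alone. At the low end were Psmd6, a non-ATPase subunit of the lid, with 97 and 101, and Psmd9, an assembly chaperone, with 109 and 91.

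Every gene of the alpha ring (7 of 7) carried a promoter peak in both libraries, with percentiles of 94.0 to 99.7 in replicate 1 and 95.0 to 99.9 in replicate 2. Psma3 was the lowest of the ring in both, with scores of 123 and 125. Psma7 scored 133 in replicate 1 and 145 in replicate 2, at percentiles of 96.6 and 99.7. Psma2 (132 and 130), Psma4 (134 and 136) and Psma5 (140 and 138) completed the ring.

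The constitutive beta ring (7 of 7 genes) was open at its promoters in both libraries as well. The structural subunits Psmb1 (139 and 139), Psmb2 (135 and 129), Psmb3 (140 and 134) and Psmb4 (121 and 126) had percentiles between 93.4 and 98.5. Among the catalytic subunits, Psmb7, of trypsin-like activity, had scores of 138 and 134, and Psmb6, of caspase-like activity, had 133 and 130. Psmb5, of chymotrypsin-like activity and the main target of proteasome inhibitors, had 116 and 113 and was the lowest of the beta ring in both libraries, at percentiles of 92.0 and 91.9. Its peak lay at chr14:54617996-54618145 in replicate 1, with its centre 49 bp upstream of the start site.

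The induced counterparts had scores in the same range. Psmb8, which replaces Psmb5, had a peak at chr17:34197636-34197785 in both libraries, centred 10 bp upstream of the start site, with scores of 121 and 123 against 116 and 113 for Psmb5. A second shared peak lay 610 bp downstream, with scores of 81 and 87. Replicate 1 had 3 more peaks in the Psmb8 promoter, all without an overlapping peak in replicate 2, with scores of 21, 34 and 21.

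Psmb9, which replaces Psmb6, had its highest peak at chr17:34187376-34187525 in replicate 1, with scores of 132 in that library and 136 in replicate 2, against 133 and 130 for Psmb6. Its centre lay 313 bp downstream of the outermost Psmb9 start site, and the promoter is shared with Tap1, which encodes a chain of the peptide transporter of antigen presentation. The nearest start sites of the 2 genes are 30 bp apart, so the peak cannot be given to one of them. A peak near the outermost start of Psmb9 had scores of 112 and 118, and one further upstream had 89 and 82.

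Psmb10, which replaces Psmb7, had its highest peak inside the gene. This peak, at chr8:105936996-105937145 with scores of 124 and 117, lay 1373 bp downstream of the outermost start site, beside an annotated start of a retained-intron transcript inside the gene. At the outermost start site the shared peaks scored 95 (centre 7 bp upstream) in replicate 1 and 60 (centre 27 bp upstream) in replicate 2, at percentiles of 84.2 and 69.1. Psmb7, for comparison, scored 138 and 134.

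Psmb11 had no promoter peak and no promoter hotspot in either library. Its start site lies 3411 bp from that of Psmb5, and the nearest peaks on that side, centred 3362 bp and 3382 bp upstream of Psmb11 in replicates 1 and 2, were the Psmb5 promoter peaks with scores of 116 and 113. No peak lay downstream of the Psmb11 start within 5 kb. The promoter list of each library thus ended at Psmb5 in this pair of neighbours.

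The activator genes Psme1 and Psme2, which lie 12990 bp apart on chromosome 14, both had promoter peaks in both libraries. For Psme1 the scores were 123 and 122 at chr14:55578356-55578505, centred 308 bp downstream of the outermost start site and 25 bp upstream of the nearest one. For Psme2 the peak over the start site scored 145 in replicate 1 (centre 42 bp downstream) and 137 in replicate 2 (62 bp downstream). A second one, toward the neighbouring gene Rnf31, scored 142 (558 bp upstream) and 139 (598 bp upstream) and was the highest in replicate 2. Rnf31 encodes a ubiquitin ligase of the linear chain complex, and its nearest start site is 595 bp from that of Psme2.

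**Figure D2:**
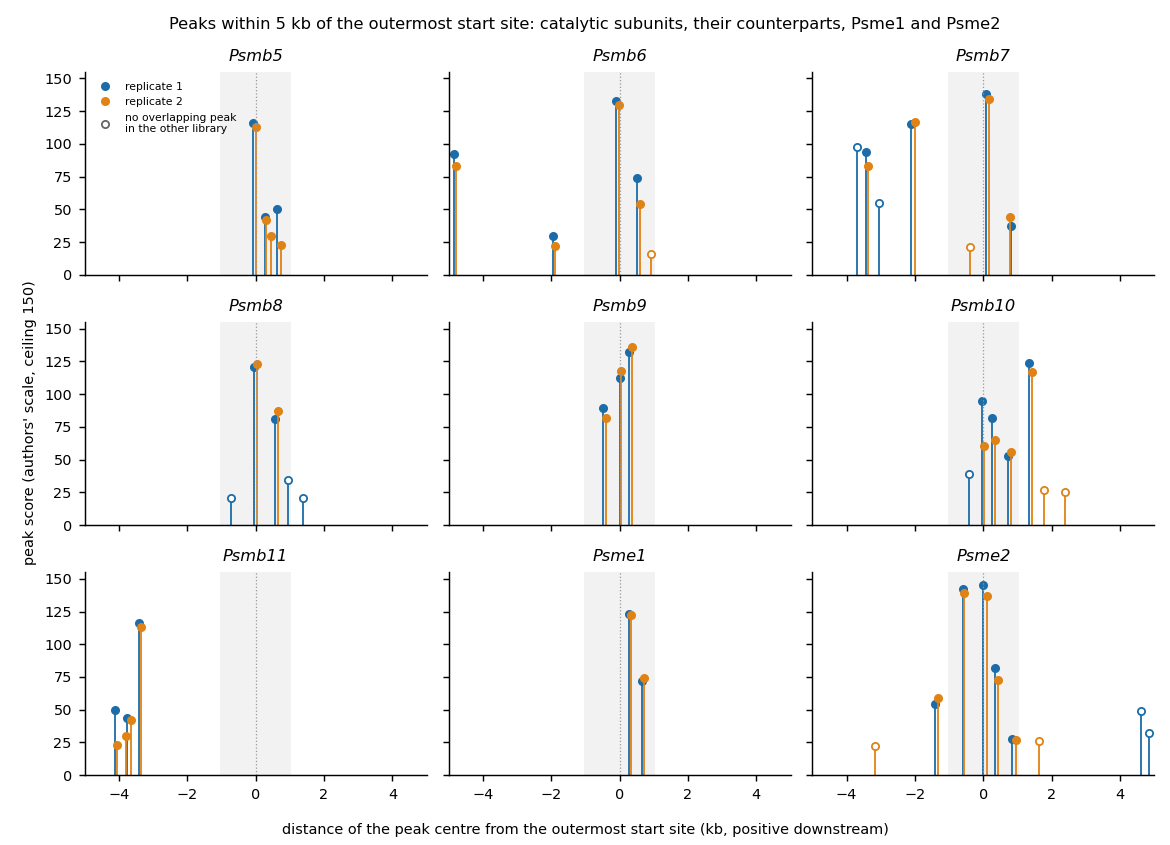
Each stem is 1 peak, placed by the distance of its centre from the outermost annotated start site of the gene (x axis, kb, positive in the direction of transcription) and its score (y axis, authors' scale with a ceiling of 150). Blue is replicate 1 and orange is replicate 2, slightly offset from each other, open points have no overlapping peak in the other library, and grey shading marks 1 kb on either side of the outermost start site, not of other start sites. Psmb11 shows only the peaks of its neighbour Psmb5, and the highest stems of Psmb10 (124 and 117) stand outside the shading.

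Psma8, which replaces Psma7 in the proteasome of male germ cells, had no promoter peak, no promoter hotspot and no shared distal peak. Of 3 markers of the male germ line (Sycp1, Ddx4 and Dazl), 0 had a promoter peak in both libraries, and they had 1, 3 and 5 shared distal peaks. Psme2b had 1 peak in replicate 1, with a score of 11 at the percentile of 2.04, in a hotspot 117 bp wide. Replicate 2 had none. Psme2b resembles Psme2, and the treatment of reads that map to both is not stated, so its value is uncertain. Psmc3ip, the gene that is no subunit, scored 122 in both libraries.

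All 6 ATPase genes of the regulatory particle had a promoter peak in both libraries. Psmc4 was the highest, as given above, followed in replicate 1 by Psmc6 (137 and 140), Psmc5 (134 and 124) and Psmc3 (132 and 136). Psmc1 (116 and 103) and Psmc2 (115 and 124) were the lowest in replicate 1, and in replicate 2 only Psmc1, at the percentile of 89.0, lay under the 90th. For Psmc1 no shared promoter peaks of the 2 libraries overlapped by 75 bp or more.

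All 11 non-ATPase genes had one too, with percentiles of 85.1 to 99.0 in replicate 1 and 88.3 to 99.2 in replicate 2. Psmd7 and Psmd8 (142 and 137), both of the lid, were the highest in replicate 1. The ubiquitin receptor Psmd4 scored 135 in both libraries, and Psmd14, the deubiquitinase of the lid, scored 127 and 131. The scaffold genes of the base, Psmd1 and Psmd2, scored 114 and 108, and 133 and 126. Psmd3 (137 and 138), Psmd11 (135 and 132), Psmd12 (139 and 137) and Psmd13 (131 and 135) lay between. Psmd6 was the lowest of the constitutive genes in replicate 1, and Psmd9 in replicate 2.

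The 7 assembly chaperone genes spanned the widest range of the constitutive roles in replicate 2. Psmd5, Psmd9 and Psmd10 help to build the ATPase ring, and their scores were 142 and 132, 109 and 91, and 127 and 98. Psmd10, also known as gankyrin, is the member on the X chromosome, and its peak stood at the percentile of 95.1 in replicate 1 and 87.4 in replicate 2. Psmg1 (129 and 137), Psmg2 (121 and 124), Psmg3 (134 and 119) and Psmg4 (127 and 126) help to build the core particle.

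The other activators and the inhibitor also had promoter peaks in both libraries. Psme3, the nuclear relative of Psme1 and Psme2, scored 129 and 136. Psme4, the large activator PA200, scored 139 and 143, and its widest promoter hotspot, 2776 bp in replicate 1 and 2344 bp in replicate 2, was the widest of all proteasome genes. Psmf1, the inhibitor PI31, scored 134 and 119.

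The highest shared promoter peak sat close to an annotated start site in most members. In replicate 1 its centre lay within 100 bp of a start site in 43 of 47 proteasome genes (91.5%), against 66.9% of the 12847 protein-coding genes with a shared promoter peak. It covered a start site in 37 of 47 (78.7%), against 57.7%, and its centre was upstream of the nearest start site in 39 of 47 (83.0%), against 73.2%. The median distance was 33 bp in the members and 60 bp in all genes. The median number of annotated start sites per gene was 5 in the members and 3 in all genes, so a member has more start sites to be near.

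In 4 constitutive genes the promoter peak depended on an internal start site. Psma6 had no promoter peak at its outermost start, and its peak at chr12:55398696-55398845 lay 14549 bp downstream of it, 4 bp upstream of an internal start of a protein-coding transcript. The peak of Psmd9 lay 58818 bp downstream of the outermost start, that of Psmd5 3957 bp and that of Psmf1 2875 bp. With 1 start site per gene, the outermost, these 4 genes no longer counted, and 43 of the 50 members had a promoter peak in both libraries, where 54.5% of all genes did. The genes with a promoter peak in both libraries remained 47 when only start sites of protein-coding transcripts were used.

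A shared promoter peak was also in the promoter of another protein-coding gene for 12 of the 47 members, near the background of 22.0% over all genes with a shared promoter peak. The pairs were Psma2 with Mrpl32, Psma4 with AY074887, Psma7 with Ss18l1, Psmb1 with Tbp, Psmb9 with Tap1, Psmc2 with Dnajc2, Psmc5 with Ftsj3, Psmd10 with Atg4a, Psmd13 with Sirt3, Psme2 with Rnf31, Psmg2 with Cep76 and Psmg3 with Gm26938. Tbp encodes the TATA-binding protein, and Mrpl32 a mitochondrial ribosomal protein. The nearest start sites of a pair were 30 bp (Psmb9 and Tap1) to 595 bp (Psme2 and Rnf31) apart. For these 12 genes the peak cannot be given to one gene of the pair.

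Promoters rich in CpG are often open in many cell types, and the CpG ratio (observed over expected, within 500 bp of the outermost start site) differed between the classes. Its median was 0.744 in the constitutive genes, 0.460 in the immune and thymus genes and 0.552 in all protein-coding genes. The share of all genes with a promoter peak in both libraries ran from 7.53% in the lowest of 10 equal groups by CpG ratio to 91.8% in the highest. Of the 40 members in the 5 highest groups, 39 had a promoter peak in both libraries, and Psma8 (0.564) did not. In the 5 lowest groups, where 7.53% to 60.4% of all genes had one, 8 of 10 members did. Psmb11 (0.156) and Psme2b (0.236) did not. Of those 8, Psmb10 (0.265), Psme1 (0.460) and Psme2 (0.459) belong to the immune class. For Psma6 (0.222), Psmd5 (0.371), Psmd9 (0.240) and Psmf1 (0.158) the ratio was taken at the outermost start, away from the peak, and for Psmb10 it was taken away from its highest peak.

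**Figure D3:**
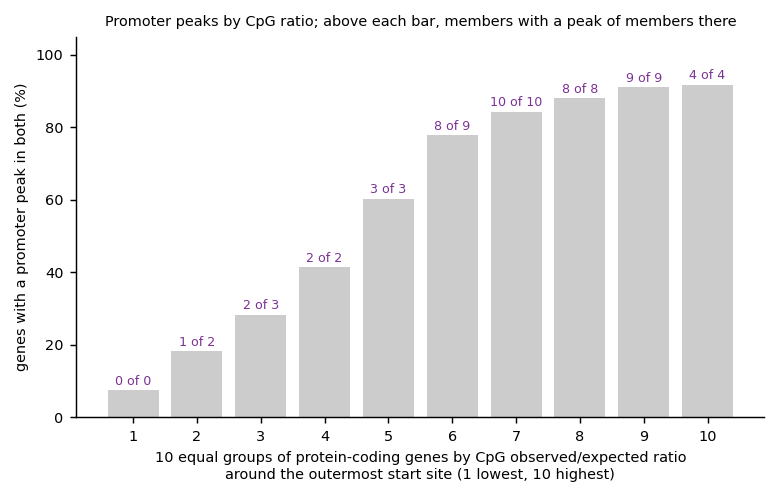
Bars give the percentage of all protein-coding genes with a promoter peak in both libraries (y axis) in each of 10 equal groups of genes by CpG observed over expected ratio (x axis, 1 lowest to 10 highest), and the labels above them give how many of the proteasome genes in that group had one. The bars run from 7.53% to 91.8%, and the members without a peak fall in groups 2, 3 and 6.

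Hotspots, the wider enriched regions of the same libraries, gave the same 47 genes, with a promoter hotspot in both libraries for 47 of 50 members against 59.4% of all protein-coding genes. A promoter hotspot at the capped q-value in both libraries was found for 47 of 50 members, against 55.7% of all protein-coding genes. All 47 members with a promoter hotspot in both libraries thus reached the cap, as did 12195 of the 13022 protein-coding genes with one. The median width of the widest promoter hotspot was 1279 bp and 1164 bp in the constitutive genes and 1430 bp and 1499 bp in the immune and thymus genes, beside 1342 bp and 1284 bp in all genes with a promoter peak in both libraries. Psmb5 had the narrowest among the members with a peak in both libraries, 567 bp and 559 bp.

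A distal peak lay outside the promoters of all protein-coding genes and was counted for a gene if it was within 50 kb of the outermost start site. Promoters of noncoding genes were not excluded, so peaks there can count as distal. At least 1 shared distal peak was found for 47 of 50 members, against 77.6% of all protein-coding genes. The median number was 6 in all members, 6 in the constitutive genes and 6.5 in the immune and thymus genes, beside 4 in all protein-coding genes. Psmd9 had 22, Psmb3 21, Psmc3ip 19, Psmb7 17 and Psmd3 15, while Psma8, Psmd10 and Psme2b had 0. The genes of the immune class had between 4 (Psme2) and 7 (Psmb8, Psmb9 and Psmb11), inside the constitutive range of 0 to 22. For Psmd9 the window is centred on the outermost start, away from its promoter peak. A window holds peaks of neighbouring genes too, and a count does not assign a peak to the member.

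**Figure D4:**
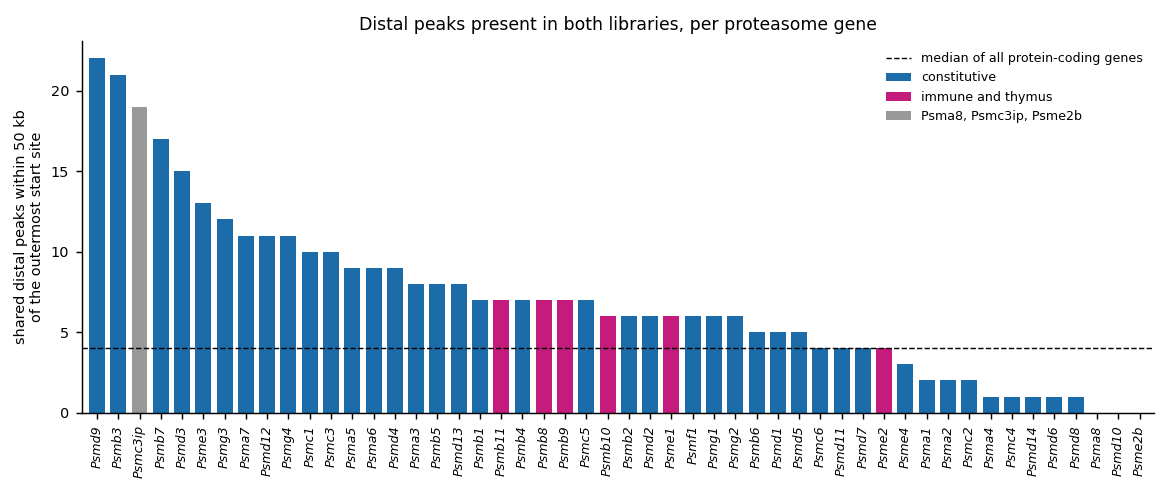
Each bar counts, for 1 proteasome gene, the shared distal peaks no more than 50 kb from its outermost start site (y axis, counted in the list of replicate 1), ordered by number, with the dashed line at the median of all protein-coding genes (4). Counts run from 22 at Psmd9 to 0 at Psma8, Psmd10 and Psme2b, and the immune and thymus genes lie between 4 and 7.

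The windows together held 334 distinct shared distal peaks, of which 18 lay in the window of more than 1 member. Introns held 136 of them, exons 55 and intergenic sequence 143. The nearest start site belonged to a member for 110. Their median score percentile in replicate 1 was 60.4, the same as for the 83249 shared distal peaks of the whole list. Of the 334, 16 had a mean percentile of 90 or more.

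The highest of these, at chr14:54603396-54603545 with scores of 140 and 131, lay in an intron of 4931414P19Rik, 14551 bp downstream of the Psmb5 start and in the windows of both Psmb5 and Psmb11. The next, at chr11:97680556-97680705 with scores of 133 and 131, lay 22768 bp upstream of Psmb3 in an exon of Mllt6. Others were nearest to a member. At Psmc2 a peak with scores of 126 and 119 lay 1448 bp downstream of the start in an exon of the gene (chr5:21786656-21786805). Upstream of Psma3 a peak with scores of 127 and 115 lay 5950 bp from the start (chr12:70968596-70968745), and upstream of Psmb7 one with scores of 115 and 117 lay 2064 bp from it (chr2:38646076-38646225).

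The letters of the highest shared promoter peak of replicate 1 were searched for 14 short words on both strands, in 150 bp for each of the 47 members and of the 12847 genes with a shared promoter peak. The median GC content of these peaks was 62.7% in the members and 65.3% in all genes. A match says that the letters are present, and not that a protein is bound. Some words overlap in their letters: the ETS word, the kappaB word and the interferon word share GGAA or GAA, and a CRE can lie inside an antioxidant word. Members that share a promoter with a neighbour share its letters.

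The loose antioxidant word TGANNNNGC was found in 19 of 47 members (40.4%), against 25.8% of all genes. Its free letters take in words such as TGACGGAGC in Psmb6 and TGAGGAGGC in Psmc3ip. The 19 members included 15 of the 41 constitutive genes, among them the catalytic genes Psmb5 and Psmb6 but not Psmb7. The 19 also included 3 of the 5 immune and thymus genes with a peak (Psmb9, Psmb10 and Psme2). For Psmb10 the match lies in the peak inside the gene. Of the 22 matches, 19 lay within 100 bp of a start site. The stricter word TGANTCAGC of the CNC and small Maf partners was found in 0 of 47 in these 150 bp, against 0.560%. It was present for Psmb5 and Psmd14 when the window was widened to 300 bp, where 1.02% of all genes had it.

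The ETS word CCGGAAG was found in 18 of 47 members (38.3%), against 14.6% of all genes. It was present in 4 of the 6 ATPase genes (Psmc1, Psmc2, Psmc3 and Psmc6) and in 6 non-ATPase genes (Psmd2, Psmd6, Psmd7, Psmd11, Psmd13 and Psmd14). In the alpha ring it was found in Psma6, in the constitutive beta ring in Psmb7, and in the immune class in Psmb10. The Psmb10 matches lie in the peak inside the gene, away from its outermost start site. Psme3, Psme4, Psmg1, Psmg3 and Psmc3ip made up the rest. All 21 matches lay within 100 bp of a start site, at a median distance of 23 bp, as in the stretches of Psmc6 and Psmg1 printed above. The YY1 word AAGATGG was found in 6 of 47 (12.8%), against 3.78%: Psmb4, Psmb7, Psmc1, Psmc4, Psmc5 and Psmd7. None of the 5 immune and thymus genes had the YY1 word in these 150 bp.

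Words of the interferon and inflammatory pathways were found in few genes of the immune class. The interferon-stimulated response word GAAANNGAA was found in 6 of 47 members (12.8%), against 2.71% of all genes. All 6 were constitutive: Psmb3, Psmb4, Psmd4, Psmd7, Psmf1 and Psmg4. In 300 bp round the peak, where 5.65% of all genes had it, it was also present for Psma4 and, in the immune class, Psme1 and Psme2. The gamma-activated word TTCNNNGAA was found in 3 of 47 (6.38%), against 3.15%, namely Psmb8, Psmd2 and Psmd3. In Psmb8 it was TTCAAGGAA, 9 bp downstream of the start. The kappaB word GGAANNNCC was found in 11 of 47 (23.4%), against 12.4%, 10 of them constitutive and none in the immune class. With 5 immune genes in the search, 1 gene moves a share by a large step, and the classes were not tested against each other.

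The NF-Y word CCAAT was found in 13 of 47 members (27.7%), close to the 29.1% of all genes, with 12 constitutive genes and none of the 5 immune and thymus genes. In replicate 2, where the highest shared peak of Psme2 is the one toward Psme2's neighbour Rnf31, Psme2 had it. The SP and KLF word GGGCGG was in 27 of 47 (57.4%), against 55.4%. The remaining words were rare in the members: CRE TGACGT in 3 of 47 (Psmb2, Psmb5 and Psmb8) against 9.34%; the word CGCATGCG of the nuclear respiratory factor NRF1, which is not Nfe2l1, in 1 (Psma2) against 2.65%; and TATAAA in 1 (Psmb4) against 1.71%. The heat shock word GAANNTTC was found in 2 (Psmb9 and Psmf1), against 2.02%, and the E-box CACGTG in 2 (Psma4 and Psme3), against 7.09%.

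**Figure D5:**
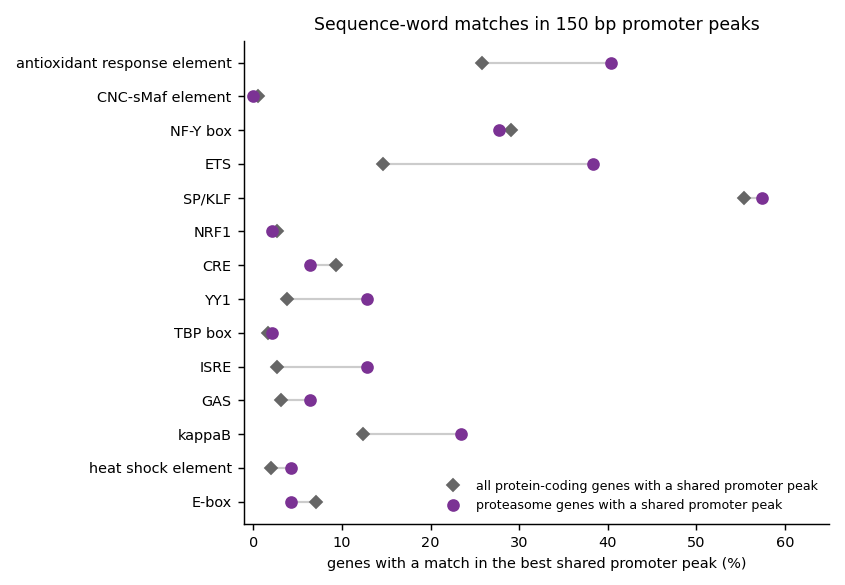
For each of 14 short sequence words (y axis, NF-Y box and TBP box being the words of those factors), the purple circle is the percentage of the 47 proteasome genes and the grey diamond the percentage of the 12847 protein-coding genes whose highest shared promoter peak holds the word (x axis). The widest gaps are at the ETS word (38.3% against 14.6%) and the loose antioxidant response element word (40.4% against 25.8%). The NF-Y (27.7% against 29.1%) and SP/KLF words (57.4% against 55.4%) are close.

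The promoter windows of RefSeq (250 bases before to 50 after the start, GRCm38) were available for 42 of the 50 members and searched in the same way. The loose antioxidant word was found in 23 of 42 (54.8%), against 41.7% of all genes in that table. Psmb8 was among the 23 and Psmb10 was not. The ETS word was found in 14 of 42 (33.3%), against 12.3%, with none of the 6 immune and thymus genes among the 14. The YY1 word was found in 8 of 42 (19.0%), against 6.43%, with Psme2 of the immune class among the 8. In that table the interferon word was in 6 of 42 (14.3%), against 8.35%, with Psme1 among the 6.

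The wider ubiquitin and proteasome pathway was looked at in the same way. In a list of other subunits, assembly factors, regulators, ubiquitin genes, shuttle factors and antigen presentation genes, all 34 that matched the annotation carried promoter peaks in both. Tap1, which shares its promoter with Psmb9, is among them, and its value is that of Psmb9 given above. The background over all protein-coding genes is the 58.9% given above. Within the list, the 8 interferon and antigen presentation genes all had a peak in both libraries, but not all of these peaks were high. Irf8, a factor of immune cells, had scores of 35 and 18 (percentiles of 29.7 and 13.1), and Nlrc5, the activator of MHC class I genes, had 86 and 68 (79.8 and 74.1). Of marker genes of cells that express the induced or thymus subunits at high levels, 0 of 4 of blood and immune cells (Ptprc, Cd3e, Spi1 and Itgam) had a promoter peak in both libraries, although Cd3e had a promoter hotspot in both. Of 4 markers of the cortical thymic epithelium, Prss16, Ccl25 and Dll4 had one and Foxn1, the defining factor of that tissue, had none. Of 5 pan-neuronal markers, 4 (Tubb3, Nefh, Syt1 and Map2) had one and Dcx had none. The part of these in the values of the immune class was not tested.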

How the data were processed

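Open chromatin was measured by DNase-seq in 2 biological replicates of the MN1 line, 1 library each. The deposited peak lists carry a score made by the authors, and the deposited hotspot lists carry −log10 of a q-value, from 1.30 to a cap of 100. Both are on mm10 per the labels. For aligner, caller and threshold, nothing was stated (not given in the sources used here). Read depth is unknown, so no interval was computed. Replicate 1 had 170600 distinct peaks and 140519 hotspots, and replicate 2 had 162983 and 135294. Whether the replicates came from separate cultures is not stated beyond their labels as biological replicates.

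Repeated peaks were removed (43 and 20), and the 19 autosomes, X and Y were used, with 93444 start sites of GENCODE M21 protein-coding genes. Python 3.11.15 with pandas 2.3.3, numpy 2.4.6 and pyfaidx 0.9.0.4 was used, and the functions were tested on simulated peaks. The members and gene lists were chosen with earlier results of these data known. The genes given in full are Psmb5 to Psmb11, Psme1, Psme2, members without a promoter peak in both libraries and the 5 with the highest mean score percentile. Sequence was printed only outside annotated exons. The sequences of Psmb1, Psmb2, Psmb7, Psma8, Psmg2, Psmd3, Psmd7 and Psmc3 are not shown. A listed marker gene is not reported here. Alternatives changed the windows, the start sites, the overlap, the score threshold, the search window for words and the library.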

Additional observations from a re-analysis of the deposited data

How the results depend on the processing

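No paired analysis was possible because the series has 1 group and no result comes from a test. The 121 recomputed values are counts and medians, which have no direction to reverse. Each was therefore only called the same or moved. The counts of members, constitutive genes, immune and thymus genes and related genes with a promoter peak in both libraries, of members with a promoter hotspot and of members with a shared promoter stayed within 1.5 times their main value under every alternative run. These included start sites of protein-coding transcripts only, which was added after seeing the data. Most of these counts stood near the size of their class and could not rise by that factor, so the label says little. With a promoter peak, members ran from 43 to 48, constitutive genes from 37 to 42 and related genes from 32 to 34. The 42 took in every member outside the immune and thymus class. Immune and thymus genes stayed at 5, and members with a shared promoter ran from 11 to 13. Counts of distal peaks moved with the window. The median was 3 within 25 kb and 13 within 100 kb for members, 3 and 13 for constitutive genes, and 3.5 and 12.5 for the immune and thymus class. With peaks above the median score of each list only it was 3, 3 and 4. When peaks in promoters of other genes were kept it was 11.5, 10 and 18.5. With 1 library alone it was 8 to 9, 9 to 9, and 7.5 to 9.5. The median of all protein-coding genes moved likewise, from 4 to 2 within 25 kb, 9 within 100 kb, 2 with peaks above the median score, 6 with promoters of other genes kept and 6 with either library alone, and stayed below that of the members each time. In 300 bp round the peak the antioxidant word was found in 33 members (44.7% of all genes) and the YY1 word in 11 (8.34% of all genes). Of the 40 recomputed counts of the other 10 words, 12 moved by more than 1.5 times, all of them for words found in 2 or fewer members. Read depth is unknown, so a missing peak cannot be told from a weak one below the authors' threshold.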
